A study of Mus musculus with 12 samples.

Results

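The core circadian clock loop was examined in liver RNA as 10 genes: Arntl, Clock, Npas2, Per1, Per2, Per3, Cry1, Cry2, Nr1d1 and Nr1d2. They were picked by name, and each matched 1 row of a table of 27912 genes. Livers of CCR1-KO mice (replicates 65, 66 and 67) were compared with livers of wild-type (WT) mice (replicates 62, 63 and 64). CCR1 is a receptor for inflammatory chemokines. Every animal of both groups was male, was 8 weeks old when feeding began, and ate the CL diet, a cholate-containing diet high in fat and cholesterol, for 12 weeks. WT is C57BL/6. The sources used here do not give the strain background of the CCR1-KO line, the deleted part of Ccr1, the hour of day at which livers were collected or the feeding state at that hour. The series has 12 libraries in 4 groups, and the 6 of the other groups, WT and CCR1-LKO livers on the same diet, were not analysed here.

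The clock is a feedback loop of transcription. ARNTL (also called BMAL1) pairs with CLOCK or its relative NPAS2 and switches on genes through E-box sequences, among them the Per and Cry genes, whose proteins then inhibit the pair. The same pair drives Nr1d1 and Nr1d2, which encode the nuclear receptors REV-ERB alpha and beta. These repress Arntl, Npas2 and other genes through ROR elements, DNA sites that the activating ROR receptors also bind. In mouse liver the transcripts of Arntl, Npas2 and Clock are therefore high when those of Nr1d1, Nr1d2 and the Per genes are low, and the reverse, with Cry1 later than the other repressors and closer to Arntl.

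Promoter windows are shown for 4 of the genes, picked because they held matches to the letters of clock elements. RefSeq windows (GRCm38.p6) reach from 250 bases before to 50 bases after a start, and 9 of the 10 genes had at least 1, Per2 being the one without. Capitals mark matches, on either strand, to the E-box CACGTG, the E-prime-box CACGTT, the ROR element letters TAGGTCA or TGGGTCA, and the D-box TTANGTAA. The marked matches do not overlap each other. Positions are counted from the start, the first transcribed base being 1. The Arntl window (chr7:113207261-113207560, plus strand) is the second of 2 RefSeq starts. The others are Cry1 (chr10:85185005-85185304, minus strand), Per1 (the first of 2 starts, chr11:69098699-69098998, plus strand) and Per3 (chr4:151044616-151044915, minus strand).
Arntl: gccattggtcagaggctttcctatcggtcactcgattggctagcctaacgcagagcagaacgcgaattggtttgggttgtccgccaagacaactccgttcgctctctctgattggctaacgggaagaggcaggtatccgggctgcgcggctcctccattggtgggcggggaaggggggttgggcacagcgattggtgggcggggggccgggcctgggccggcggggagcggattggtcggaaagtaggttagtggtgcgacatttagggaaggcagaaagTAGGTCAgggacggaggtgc
Cry1: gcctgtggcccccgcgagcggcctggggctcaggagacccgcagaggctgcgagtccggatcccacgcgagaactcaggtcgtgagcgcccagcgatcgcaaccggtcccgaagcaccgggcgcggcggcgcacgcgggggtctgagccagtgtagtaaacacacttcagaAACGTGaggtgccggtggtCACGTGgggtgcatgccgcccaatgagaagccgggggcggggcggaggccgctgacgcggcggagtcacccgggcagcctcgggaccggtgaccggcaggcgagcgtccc
Per1: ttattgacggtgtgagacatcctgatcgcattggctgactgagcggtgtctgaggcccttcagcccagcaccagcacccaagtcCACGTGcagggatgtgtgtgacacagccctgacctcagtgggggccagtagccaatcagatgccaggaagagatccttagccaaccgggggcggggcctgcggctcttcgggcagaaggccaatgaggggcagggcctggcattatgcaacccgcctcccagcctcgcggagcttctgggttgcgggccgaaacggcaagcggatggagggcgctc
Per3: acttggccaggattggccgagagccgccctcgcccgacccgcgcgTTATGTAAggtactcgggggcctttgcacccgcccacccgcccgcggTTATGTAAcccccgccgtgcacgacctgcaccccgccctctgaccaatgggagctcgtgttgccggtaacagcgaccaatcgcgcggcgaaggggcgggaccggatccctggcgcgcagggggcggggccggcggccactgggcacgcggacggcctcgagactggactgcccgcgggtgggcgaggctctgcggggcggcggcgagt

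Arntl held TAGGTCA at bases 31 to 37, in the transcribed part of the window. Cry1 held an E-box at -60 to -55 and an E-prime-box, read on the opposite strand, at -79 to -74. In Per1 there was an E-box at -166 to -161, and Per3 had D-boxes at -205 to -198 and -158 to -151. Cry2 and Nr1d1 each had an E-prime-box, on the opposite strand, at -166 to -161 and at -28 to -23. No match was found in the windows of Clock, Npas2 and Nr1d2, in the other Arntl window or in the other Per1 window. Of the 13 windows of the clock genes, 2 held the E-box, 3 the E-prime-box, 1 TAGGTCA, 0 TGGGTCA and 1 the D-box. Among all 32851 windows of that length, 7.15% held the E-box, 4.68% the E-prime-box, 2.61% TAGGTCA, 3.98% TGGGTCA and 2.32% the D-box. A match is a run of letters and not a measured binding site.

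Each library held between 74699391 and 79154085 reads counted on genes. Values below are CPM (reads of a gene relative to the TMM-scaled library total) in single libraries, and FPKM (per length of gene) where levels of different genes are compared. Reads of Ccr1 itself, the targeted gene, numbered 11, 4 and 14 in CCR1-KO (in the order 65, 66, 67), against 100, 23 and 123 in WT (62, 63, 64). All CCR1-KO libraries were thus below all WT libraries (log2 fold change -2.72 ± 0.76, adjusted p = 0.075). The 5 hepatocyte markers had a summed level of 68165 to 84692 CPM in CCR1-KO and 67915 to 82043 CPM in WT. At the threshold defined below, 2 of them rose in CCR1-KO, where 2.83% of all genes rose. CCR1-KO replicate 65 stood apart from the other CCR1-KO libraries. The major urinary protein (Mup) genes took 3.36% of its reads, 12.2% in replicate 66 and 15.8% in replicate 67, against 0.927% to 1.05% in WT. Its 5 Kupffer cell and macrophage markers summed to 180.6 CPM, with 86.4 CPM in replicate 66 and 89.6 CPM in replicate 67, against 99.8 to 148.6 CPM in WT. Its 2 red cell markers summed to 375.7 CPM, with 104.4 and 119.4 CPM in the other CCR1-KO libraries, against 148.3 to 275.3 CPM in WT. Of the other marker lists, the 5 stellate cell markers summed to 179.6 to 213.4 CPM in CCR1-KO and 288.1 to 459.1 CPM in WT. At the same threshold 4 of the 5 fell, where 3.61% of all genes fell. The 4 bile duct markers summed to 3.93 to 5.19 CPM in CCR1-KO and 6.99 to 9.82 CPM in WT, with 0 of them past the threshold. Endothelial, T cell and neutrophil sums overlapped between groups. The 3 B cell markers summed to at most 1.13 CPM in CCR1-KO and 1.38 to 2.56 CPM in WT, and 0 of the 3 passed. No marker was at 0 in every library. The part of these differences in the clock values below was not tested, and in whole liver fewer cells of a type cannot be told apart from less RNA per cell.

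Per1 was the clock gene that rose in CCR1-KO livers, 3.90-fold on mean CPM, and it was the only one of the 10 past the threshold. The activator genes Arntl and Npas2 did not pass, with CCR1-KO libraries on both sides of the WT libraries: replicate 65 lay above all WT libraries, replicates 66 and 67 far below them. Most Per and REV-ERB genes showed the opposite order among the CCR1-KO animals, with replicate 65 lowest in CPM. The WT libraries, by contrast, lay close together for the clock genes, Per3 having the widest WT spread. The threshold was an adjusted p under 0.05 in edgeR's quasi-likelihood test over 17729 genes. All 10 clock genes were tested, and 1 rose and 0 fell, with a median log2 fold change of 0.36. At an unadjusted p under 0.05 edgeR had 4 higher (Per1, Per2, Cry2 and Nr1d2) and 0 lower, where 11.3% of all genes were higher and 13.2% lower. DESeq2, which gave 9 of the 10 an adjusted p, called 2 higher and 0 lower, where 6.97% of 16682 genes were higher and 8.15% lower. At the adjusted threshold in edgeR 6.44% of all genes passed (2.83% higher, 3.61% lower), with a median of 0.0017. With 1 call among 10 genes, the count is close to that background. The calls over all genes were 501 higher and 640 lower, and 219 higher and 857 lower without scaling factors, a setting with a median over all genes of -0.30. With limma on FPKM they were 223 higher and 1088 lower, and the median was -0.23. In both of these fits Per1 was again the single call among the clock genes tested. Npas2 was too low in FPKM for the filter of this limma fit.

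**Figure D1:**
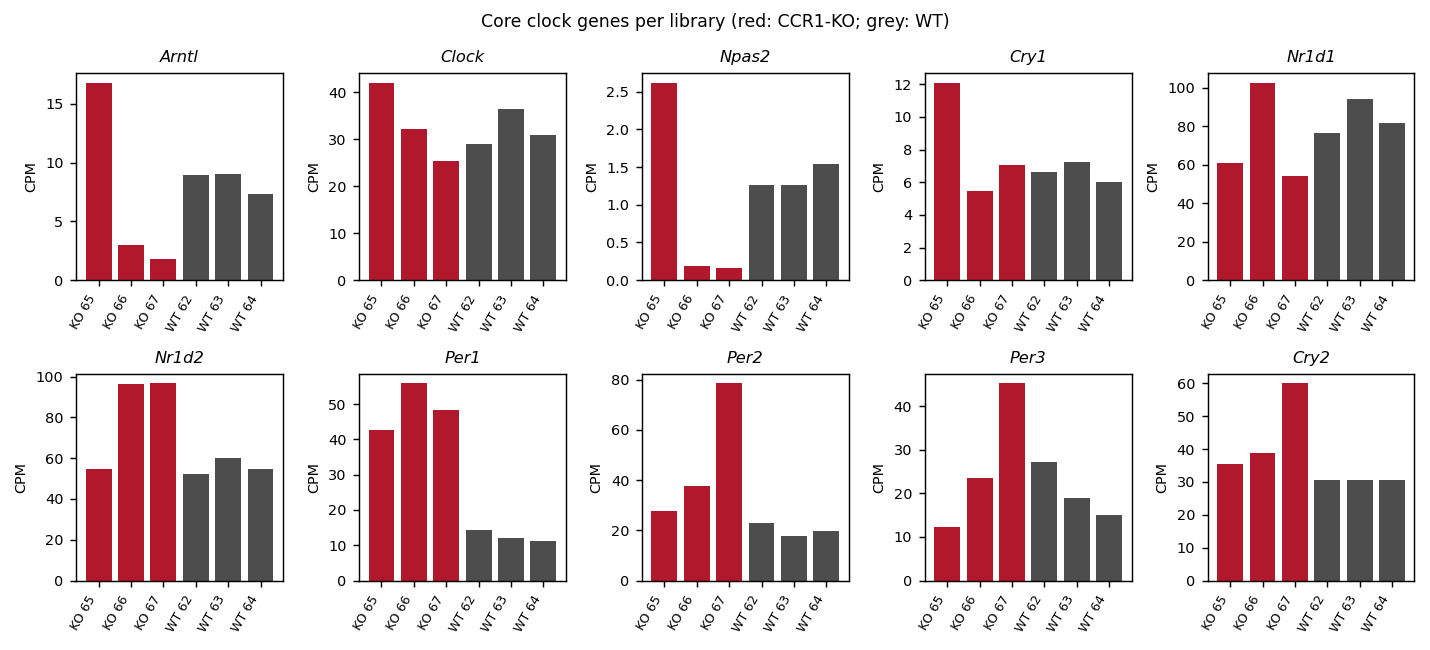
Level of each core clock gene in each library, in CPM on a linear axis from 0, with CCR1-KO libraries in red and WT libraries in grey. Each bar is 1 library. Arntl reaches 16.8 CPM in CCR1-KO replicate 65 and 1.84 CPM in replicate 67, while the 3 WT bars lie between 7.30 and 9.06 CPM, and Per1 is higher in all 3 CCR1-KO libraries.

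Arntl encodes the obligate partner of the activating pair (ENSMUSG00000055116, chromosome 7, 113207465 to 113314126, plus strand, GRCm38). It had 16.8, 2.97 and 1.84 CPM in CCR1-KO replicates 65, 66 and 67, against 8.94, 9.06 and 7.30 CPM in WT replicates 62, 63 and 64. The first of these CCR1-KO libraries was above every WT library and the other two were below every WT library. The highest CCR1-KO value was 9.11 times the lowest, while the highest WT value was 1.24 times the lowest. Group means were 7.20 ± 8.31 CPM in CCR1-KO and 8.43 ± 0.984 CPM in WT (SD, n = 3 each). The log2 fold change was -0.22 ± 0.71 (SE, adjusted p = 0.88), with a 95% interval from -1.87 to 1.43.

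Npas2 can stand in for CLOCK beside ARNTL (chromosome 1, 39193731 to 39363236, plus strand). It had the widest spread of the 10 genes, with 209, 12 and 10 reads in CCR1-KO replicates 65, 66 and 67, against 104, 112 and 135 reads in WT. This was 2.61, 0.184 and 0.167 CPM in CCR1-KO, against 1.26, 1.27 and 1.54 CPM in WT. The order was that of Arntl, with no CCR1-KO library inside the WT range. Counting error does not bridge the gap: the exact Poisson 95% interval was 6.20 to 20.96 reads for 12 reads and 4.80 to 18.4 for 10, and its lower end was 84.98 for the lowest WT count. The highest CCR1-KO value was 15.6 times the lowest, against 1.22 times in WT. Npas2 did not pass the test (log2 fold change -0.44 ± 0.94, adjusted p = 0.82).

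Clock, the histone-acetylating partner of ARNTL (chromosome 5, 76209868 to 76304792, minus strand), moved in the same order but far less. Its levels were 41.9, 32.2 and 25.4 CPM in CCR1-KO replicates 65, 66 and 67, against 29.0, 36.4 and 30.8 CPM in WT. The groups overlapped in CPM, the middle CCR1-KO library lying inside the WT range. Its log2 fold change was 0.05 ± 0.19 (adjusted p = 0.91), and it was -0.21 without scaling factors.

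Per1, the period repressor whose transcript also responds quickly to glucocorticoids and cAMP (ENSMUSG00000020893, chromosome 11, 69095217 to 69109960, plus strand), had a different pattern. It had 42.6, 55.9 and 48.3 CPM in CCR1-KO replicates 65, 66 and 67, against 14.3, 12.1 and 11.3 CPM in WT. All CCR1-KO libraries, replicate 65 among them, were above all WT libraries, and the spread was small in both groups. The means were 48.9 ± 6.66 CPM in CCR1-KO and 12.6 ± 1.54 CPM in WT (SD, n = 3 each). The log2 fold change was 1.96 ± 0.15 (SE, adjusted p = 0.0022). It kept the call in each of the 13 alternatives, with log2 fold changes from 1.46 to 2.07.

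Per2, the partner repressor that anchors the loop (chromosome 1, 91415982 to 91459324, minus strand), had 27.5, 37.6 and 78.5 CPM in CCR1-KO replicates 65, 66 and 67. WT livers had 23.0, 17.7 and 19.9 CPM. The groups did not overlap, but replicate 65 lay just above the highest WT library and replicate 67 far above it. Its log2 fold change of 1.25 ± 0.35 did not pass (adjusted p = 0.080) in edgeR and passed in DESeq2 (1.26, adjusted p = 0.0040).

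Per3 (chromosome 4, 151003652 to 151044665, minus strand) is the period gene least needed for the rhythm itself and lies, in the table, within the model of Camta1 on the same strand. It had 12.2, 23.5 and 45.3 CPM in CCR1-KO replicates 65, 66 and 67, against 27.2, 19.1 and 15.1 CPM in WT. Replicate 65 was below, replicate 66 inside and replicate 67 above the WT range, and the gene did not pass (0.40 ± 0.43 on the log2 scale, adjusted p = 0.62).

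Cry1 and Cry2 encode the cryptochromes, which bind and block the CLOCK-ARNTL pair. Cry1 (chromosome 10, 85131700 to 85185064, minus strand) had 12.1, 5.46 and 7.06 CPM in CCR1-KO replicates 65, 66 and 67, against 6.60, 7.24 and 6.00 CPM in WT. It was high in replicate 65, as Arntl was, while replicate 66 was just below and replicate 67 inside the WT range (log2 fold change 0.31 ± 0.29, adjusted p = 0.55). Cry2 (chromosome 2, 92403646 to 92434043, minus strand) had 35.6, 38.7 and 60.0 CPM in CCR1-KO, against 30.7, 30.5 and 30.7 CPM in WT. Each CCR1-KO library was above every WT library, and replicate 67 stood out as it did for Per2 and Per3. The log2 fold change of Cry2 was 0.55 ± 0.20 (adjusted p = 0.14), and in FPKM its groups overlapped.

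The REV-ERB genes, which encode the repressors of Arntl, did not move alike. Nr1d1 (ENSMUSG00000020889, chromosome 11, 98767932 to 98775333, minus strand) had 60.9, 102.5 and 54.2 CPM in CCR1-KO replicates 65, 66 and 67, against 76.5, 94.3 and 82.0 CPM in WT. In CPM replicate 66 was above the WT range, and replicates 65 and 67 were below it. In FPKM replicate 66 was at 26.60, inside the WT range of 24.09 to 31.19. Nr1d1 was thus low both where Arntl was highest and where Arntl was lowest. Its log2 fold change was -0.22 ± 0.24 (adjusted p = 0.62). In the GENCODE M21 annotation, though not in the coordinates of the deposited table, its 3' end overlaps Thra on the opposite strand, and whether counting used strand is not given. Nr1d2 (chromosome 14, 18204054 to 18239127, minus strand) had 54.9, 96.6 and 96.7 CPM in CCR1-KO, against 52.2, 60.1 and 54.7 CPM in WT. Replicate 65 lay inside the WT range and the other two CCR1-KO libraries were above it (log2 fold change 0.57 ± 0.22, adjusted p = 0.16).

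The order of the CCR1-KO animals was then set out for genes of opposite phase. CCR1-KO replicate 65 had the highest value of its group for 4 of 4 genes of the Arntl side (Arntl, Npas2, Clock and Cry1), where in CPM this holds for 36.1% of all genes tested. In CPM it had the lowest value for 5 of the 6 others (Per1, Per2, Per3, Cry2 and Nr1d2, with Nr1d1 the exception), where this holds for 33.2% of all genes. In FPKM, to which no TMM factor was applied here, replicate 65 was highest for 64.6% and lowest for 9.76% of all genes. On that scale it was again highest for 4 of 4 genes of the Arntl side, and lowest for 3 of the 6 others (Per2, Per3 and Nr1d2). These counts were made after the values had been seen and carry no test. Groups that did not overlap in CPM were found for 3 of the 10 clock genes (Per1, Per2 and Cry2, all higher in CCR1-KO), near the 32.6% of all genes (15.2% higher, 17.4% lower). CCR1-KO libraries that all lay outside the WT range, on both sides of it, were found for another 3 (Arntl, Npas2 and Nr1d1), against 8.92% of all genes. In FPKM the genes with this arrangement were Arntl, Npas2, Clock and Cry1, and the groups of Nr1d1 overlapped. The share of all genes in FPKM is not given, so the 8.92% is no background for these 4. The SD of log2 CPM among CCR1-KO libraries was 2.14 for Npas2 and 1.67 for Arntl, and 1.12% and 3.67% of all genes had an SD at least as large. In WT the SD was 0.16 for Npas2 and 0.17 for Arntl. Over the 10 genes the median SD was 0.54 in CCR1-KO and 0.16 in WT, beside 0.29 in CCR1-KO and 0.22 in WT over all genes.

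**Figure D2:**
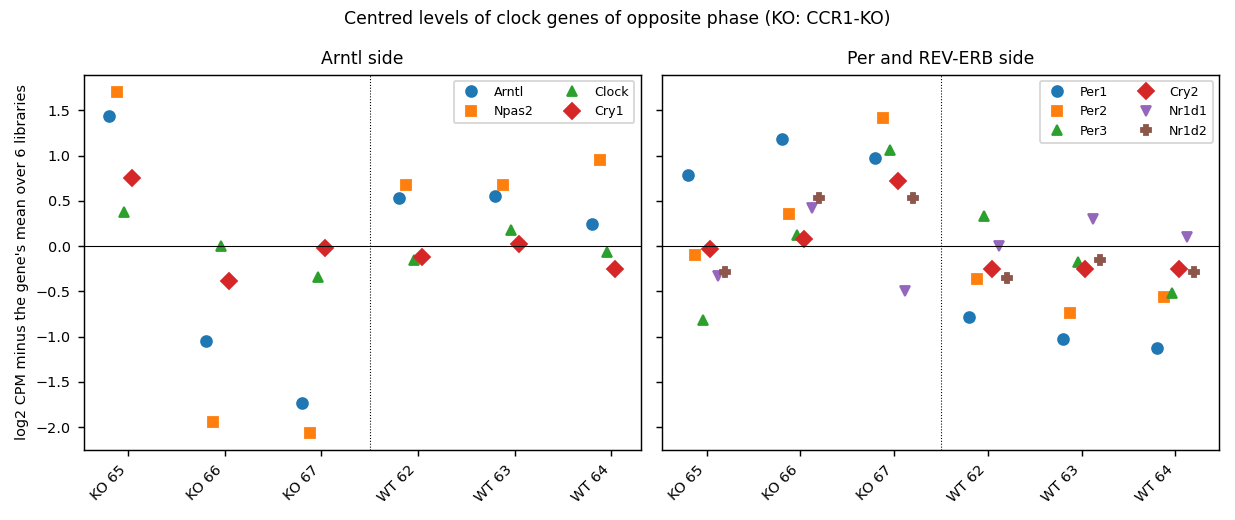
Levels per library as log2 CPM minus each gene's mean over the 6 libraries, for the Arntl side (left) and the Per and REV-ERB side (right), CCR1-KO libraries left of the dotted line and WT libraries right of it. Each symbol is 1 gene in 1 library. Arntl runs from 1.44 in CCR1-KO replicate 65 to -1.73 in replicate 67, and Per1 is above 0 in all CCR1-KO libraries and below 0 in all WT libraries.

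Ratios of genes of opposite phase were computed within each library, which removes library scaling, as log2 of the FPKM ratio. Arntl over Nr1d1 gave -3.15, -6.42 and -6.21 in CCR1-KO replicates 65, 66 and 67, against -4.39, -4.68 and -4.78 in WT. Arntl over Per2 gave -1.08, -4.05 and -5.82 in CCR1-KO, against -1.72, -1.34 and -1.81 in WT. For both ratios replicate 65 was above and the other two CCR1-KO libraries were below every WT library. Npas2 over Per3 gave -1.24, -6.02 and -7.40 in CCR1-KO, against -3.45, -2.90 and -2.30 in WT, with Npas2 in replicates 66 and 67 at only 0.03 and 0.02 FPKM. Cry1 over Nr1d2 gave -1.49, -3.45 and -3.09 in CCR1-KO, against -2.29, -2.36 and -2.49 in WT. The 4 ratios shared this arrangement. The span from lowest to highest library was 3.27 in CCR1-KO and 0.39 in WT for Arntl over Nr1d1, and 4.74 in CCR1-KO and 0.48 in WT for Arntl over Per2.

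**Figure D3:**
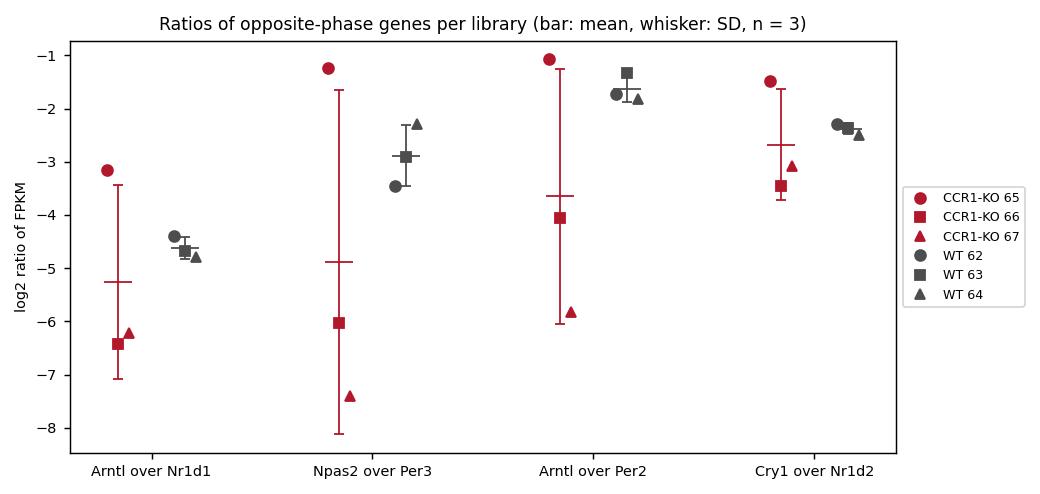
Log2 ratio of FPKM of opposite-phase clock genes in each library, CCR1-KO (red) left of WT (grey) for each ratio, with the group mean as a bar and the SD as a whisker (n = 3). CCR1-KO replicate 65 (red circle) lies above and replicates 66 and 67 lie below all WT libraries for each of the 4 ratios.

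A single index, the mean centred log2 CPM of Arntl, Clock, Npas2 and Cry1 minus that of the 6 other clock genes, summarised the arrangement. It was 1.20, -1.29 and -1.74 in CCR1-KO replicates 65, 66 and 67, against 0.47, 0.70 and 0.66 in WT. The means were -0.61 ± 1.58 in CCR1-KO and 0.61 ± 0.12 in WT (SD, n = 3 each), so the group difference of -1.22 was smaller than the spread within CCR1-KO. No p is given for the index, since its genes were chosen with results of these data known.

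Whether Arntl and Npas2 were called depended on CCR1-KO replicate 65. This replicate was singled out with its values known, as its Arntl and Npas2 levels opposed those of replicates 66 and 67. The p-values of the fit without it are therefore no independent support for a fall of these genes. Without replicate 65, 2 CCR1-KO libraries were left and 5 of the 10 clock genes passed, 3 higher and 2 lower. In the same fit 13.2% of 18360 genes passed (5.5% higher, 7.67% lower). Arntl fell (log2 fold change -1.81 ± 0.27, adjusted p = 0.0085) and Npas2 fell (-2.94 ± 0.41, adjusted p = 0.0070). Per1 rose (2.05 ± 0.15, adjusted p = 8.6e-04), as did Per2 (1.52 ± 0.29, adjusted p = 0.018) and Nr1d2 (0.79 ± 0.12, adjusted p = 0.0086). Cry2 missed the threshold narrowly (0.69 ± 0.18, adjusted p = 0.052), and Clock, Cry1, Per3 and Nr1d1 had adjusted p-values from 0.17 to 0.83. Leaving out any other library, Per1 was the only clock gene called, and Arntl and Npas2 had positive log2 fold changes without replicate 66 (0.15 and 0.05) and without replicate 67 (0.23 and 0.06).

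**Figure D4:**
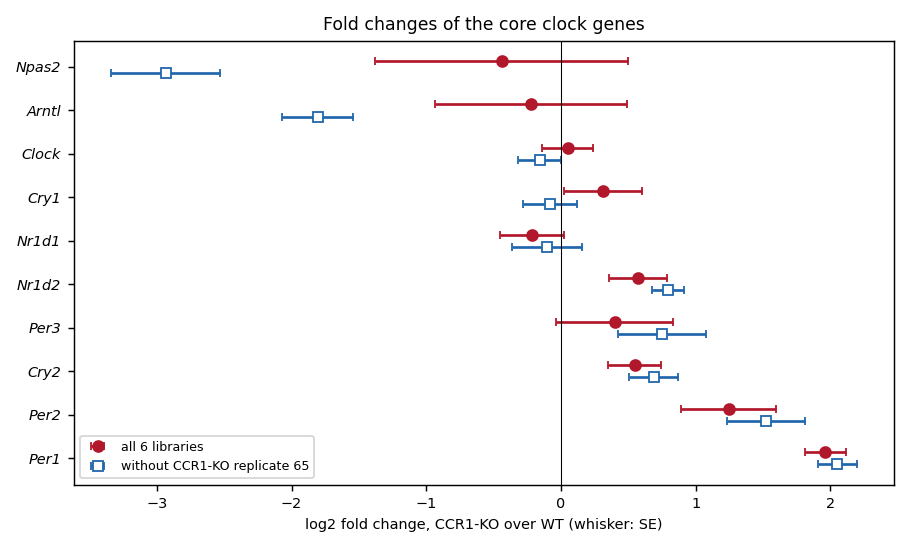
Log2 fold change of CCR1-KO over WT for each core clock gene with all 6 libraries (filled circles) and without CCR1-KO replicate 65 (open squares), whiskers giving the SE. Npas2 and Arntl move from -0.44 and -0.22 to -2.94 and -1.81, while Per1 stays near 2.

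Per length of gene, Nr1d1 had the highest group mean of the clock transcripts, at 19.4 ± 7.02 FPKM in CCR1-KO and 27.9 ± 3.57 FPKM in WT (SD, n = 3 each). Nr1d2 came next in both groups (12.3 ± 2.27 FPKM in CCR1-KO, 10.5 ± 1.01 FPKM in WT). Their ranges overlapped in CCR1-KO, and in replicate 67 Nr1d2 was at 12.77 FPKM and Nr1d1 at 12.58 FPKM. Below them in WT came Cry2, Per2, Clock, Per1, Per3, Cry1, Arntl and Npas2. The WT ranges overlapped between Clock and Per1, Per1 and Per3, and Per3 and Cry1, and between no other neighbours in this order. Npas2 was lowest, at 0.190 ± 0.286 FPKM in CCR1-KO and 0.287 ± 0.0473 FPKM in WT. Per1 was sixth of the 10 in WT at 2.25 ± 0.172 FPKM, and the third in CCR1-KO at 7.11 ± 0.904 FPKM.

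Other genes of the clock were followed in a list of 44, of which 43 were tested (Rorb was not). Of these 3 rose, 0 fell and 40 did not pass in edgeR, with a median log2 fold change of 0.17, beside 2.83% higher and 3.61% lower over all genes. Over both directions the count is close to the 6.44% of all genes that passed, but all 3 calls were higher. At an unadjusted p under 0.05 there were 12 of 43 higher and 0 lower, beside 11.3% higher and 13.2% lower over all genes. DESeq2 called 8 of 43 higher and 0 lower, beside 6.97% higher and 8.15% lower over all genes. Noct, a phosphatase of NADP(H) with a strong liver rhythm, rose to 43.8, 100.4 and 116.1 CPM in CCR1-KO replicates 65, 66 and 67, against 15.5, 16.7 and 16.9 CPM in WT (log2 fold change 2.41 ± 0.33, adjusted p = 0.012). Cipc, which inhibits CLOCK, had 56.5, 81.9 and 78.3 CPM in CCR1-KO, against 45.2, 43.8 and 36.8 CPM in WT (0.78 ± 0.17, adjusted p = 0.037). Rora, the activating receptor at ROR elements, had 48.2, 55.1 and 55.8 CPM in CCR1-KO, against 36.4, 38.2 and 37.3 CPM in WT (0.51 ± 0.11, adjusted p = 0.038). The calls of Cipc and Rora were each lost in 10 of 13 alternatives and that of Noct in 3, each time without a WT library.

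Of the 8 regulators named whatever their values, CCR1-KO replicate 65 was in CPM the lowest of its group for 6 (Rora, Dbp, Tef, Bhlhe40, Bhlhe41 and Ciart). It was the highest for 0 in CPM, where over all genes it was lowest for 33.2% and highest for 36.1%. In FPKM replicate 65 was the lowest for 4 (Dbp, Tef, Bhlhe41 and Ciart) and the highest for 3 of the 8. Over all genes in FPKM it was lowest for 9.76% and highest for 64.6%. Dbp, a D-box activator switched on by ARNTL-CLOCK, had 12.1, 74.0 and 85.2 CPM in CCR1-KO replicates 65, 66 and 67, against 42.0, 44.8 and 39.0 CPM in WT (log2 fold change 0.45 ± 0.57, adjusted p = 0.68). It was thus lowest where Arntl was highest. Ciart, a repressor of the loop, had 2.95, 30.9 and 28.0 CPM in CCR1-KO, against 4.64, 5.34 and 2.52 CPM in WT (2.30 ± 0.74, adjusted p = 0.11). Tef, a D-box activator related to Dbp, had 122.9, 227.5 and 260.2 CPM in CCR1-KO, against 139.5, 136.8 and 116.7 CPM in WT (adjusted p = 0.18). Bhlhe41, an E-box repressor, had 1.39, 4.00 and 5.92 CPM in CCR1-KO, against 1.14, 1.80 and 1.501 CPM in WT (adjusted p = 0.14).

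Hlf, the third D-box activator of that family, had 54.4, 49.4 and 68.8 CPM in CCR1-KO, against 59.2, 63.4 and 56.9 CPM in WT (adjusted p = 0.85). Nfil3, the D-box repressor, had 35.3, 38.4 and 23.7 CPM in CCR1-KO, against 15.8, 19.4 and 27.0 CPM in WT (adjusted p = 0.15). Bhlhe40 had 78.1, 142.0 and 89.2 CPM in CCR1-KO, against 149.6, 119.5 and 148.4 CPM in WT (adjusted p = 0.29). In FPKM every CCR1-KO library was below every WT library for Hlf (5.90 to 7.85 against 8.58 to 9.65) and Bhlhe40 (13.55 to 24.08 against 25.84 to 33.57). The share of all genes with this arrangement in FPKM is not given. In the whole list, CCR1-KO replicate 65 was the lowest of its group for 30 of 43 genes in CPM, beside 33.2% of all genes, and for 11 of 43 in FPKM, beside 9.76% of all genes. It was the highest for 3 of 43 in CPM, beside 36.1% of all genes, and for 21 of 43 in FPKM, beside 64.6%. Without that replicate, again singled out with its values known, 12 of the 43 rose and 0 fell, beside 5.5% higher and 7.67% lower over all genes. Among the 12 were Dbp (0.92 ± 0.13, adjusted p = 0.0066), Ciart (2.82 ± 0.30, adjusted p = 0.0028) and Tef (0.90 ± 0.14, adjusted p = 0.010).

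**Figure D5:**
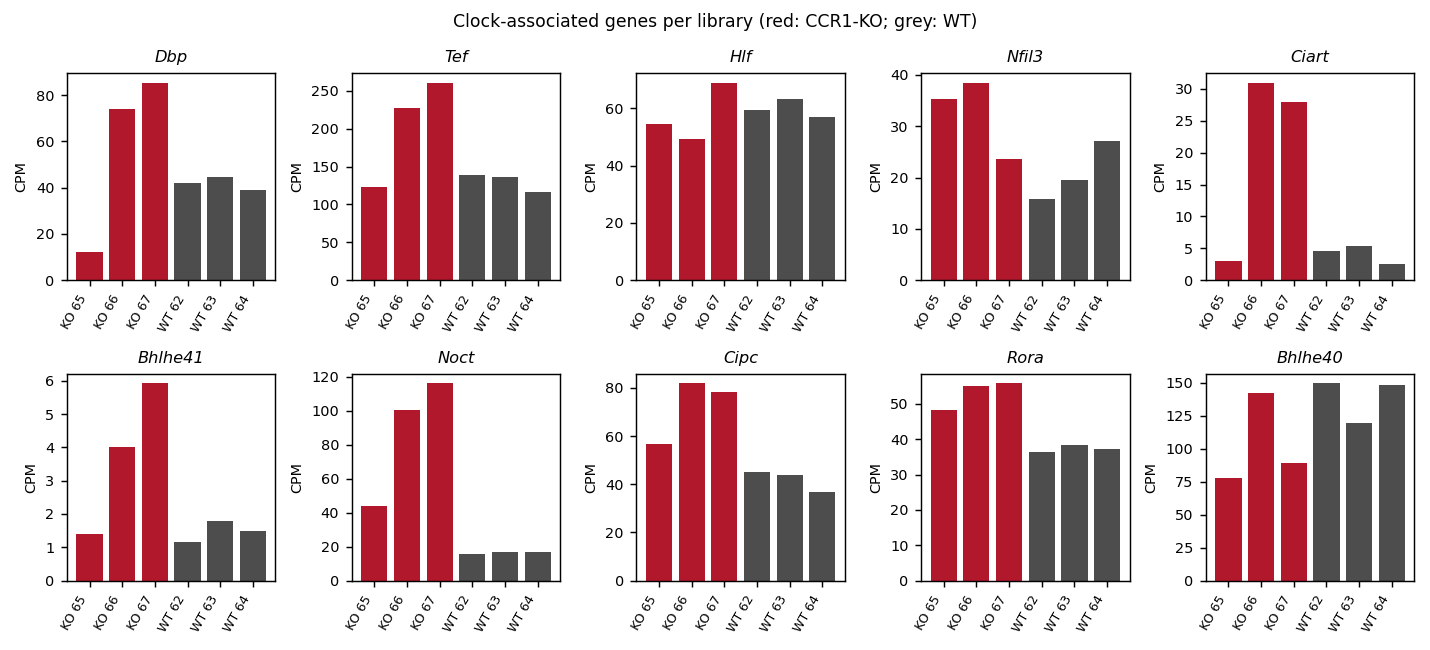
Level of 10 clock-associated genes in each library, in CPM on a linear axis from 0, CCR1-KO in red and WT in grey, 1 bar per library. Dbp, Tef and Ciart are lower in CCR1-KO replicate 65 than in replicates 66 and 67, and Noct, Cipc and Rora are above all WT libraries in all 3 CCR1-KO libraries.

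Profiles were last compared with those of 11543 genes of at least 1 CPM on average, by the root mean square difference of centred log2 CPM over the 6 libraries (0 means the same profile). The nearest to Arntl were Trim80 (0.33), Dram1 (0.37), Rgs12 (0.39), Cerkl (0.40) and Evi2a (0.40). Npas2 followed at place 38 (0.50), ahead of Cry1 at place 1493 (0.89) and Clock at place 1541 (0.90), whose swings were smaller. The 5 genes nearest to Nr1d1 were Ets2 (0.07), Bzw2 (0.08), Nhp2 (0.10), Mocs3 (0.10) and Fam3c (0.10). Its paralog Nr1d2 stood only at place 8499 (0.51). These distances describe 6 libraries and carry no test.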

How the data were processed

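Polyadenylated liver RNA was sequenced from 6 mice, 3 CCR1-KO and 3 WT, grouped by sample title. HISAT2 2.2.1, cutadapt 1.9, StringTie 2.1.6, edgeR and DESeq2 are named, without roles, per the submitters' processing notes. Per the file headers, the deposited columns are read counts and FPKM of each gene in each library. The deposited FPKM values are rounded to 2 decimals. Between libraries, the log2 ratio of FPKM to counts shifted by nearly the same amount for each gene. The SD of this shift, relative to CCR1-KO replicate 65, was at most 9.5e-04 over 3308 genes with high counts in every library. The notes name the build GRCh38, but identifiers are of mouse. All 10 clock genes have the start, end and strand of GENCODE M21, so coordinates are GRCm38. How reads that match several genes were handled is not given. No value column of other samples was found.

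Counts were tested with edgeR 4.0.16 in R 4.3.3 (glmQLFit, glmQLFTest, TMM factors 1.065, 0.8737 and 0.7787 for CCR1-KO replicates 65, 66 and 67 and 1.056, 1.119 and 1.169 for WT). The filter on low counts was filterByExpr (a count of 10, a total of 15), and p-values were adjusted by Benjamini-Hochberg over all genes kept. The SE was taken as the fold change on the log2 scale, without sign, divided by the root of the F statistic. The biological coefficient of variation was 0.302. Alternatives were RLE factors, no scaling factors, no filter, DESeq2 1.42.0, limma 3.58.1 on log2(FPKM + 0.5) or log2(FPKM + 0.1) with FPKM of at least 0.5 in 3 libraries, and leaving out each library. The order of libraries in FPKM was added after seeing the data. Libraries of a group differed by more than sampling noise (chi-square per degree of freedom at least 68.7). Titles number the animals separately, but p-values measure only the spread between these 6 libraries. Counting intervals cover counting error only.

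The clock genes and all lists were chosen with earlier results of these data known. The text names the 10 clock genes, associated genes past the threshold, 8 associated regulators whatever their values (Rora, Dbp, Tef, Hlf, Nfil3, Bhlhe40, Bhlhe41 and Ciart) and the 5 genes nearest to Arntl and to Nr1d1 among named genes. Another associated gene that the rule names is not reported here singly and is included in the counts over the list.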

Additional observations from a re-analysis of the deposited data

How the results depend on the processing

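Depth limits Npas2 most, with 10 and 12 reads in its lowest libraries. No paired analysis was made because the labels give no pairing of CCR1-KO with WT animals. Over all genes 1141 passed, against 2521 in DESeq2, 735 with no filter, 239 in unfiltered limma, and 102 to 2419 with 1 library left out (2419 without CCR1-KO replicate 65, 102 without WT replicate 63). Of the clock genes 1 passed, against 2 in DESeq2 and 1 to 5 with 1 library left out, 5 of them without CCR1-KO replicate 65. Of the associated genes 3 passed, against 8 in DESeq2, 1 in edgeR with no filter and with no scaling factors, 1 in each limma fit, and 0 to 12 with 1 library left out. The 12 were reached without CCR1-KO replicate 65, while 0 passed without WT replicate 63 or 64.

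Per1 kept its call throughout. Several log2 fold changes that did not pass changed sign, none past the threshold after the change. Without scaling factors Clock was -0.21. With limma at pseudocount 0.5 (filtered and unfiltered alike) and then 0.1, Clock was -0.22 and -0.27, Per3 -0.0371 and -0.0572, Cry1 -0.0434 and -0.0709, and Dbp -0.26 and -0.29. With 1 library left out, ranges that crossed 0 were -1.81 to 0.23 for Arntl, -2.94 to 0.0562 for Npas2, -0.16 to 0.21 for Clock, -0.20 to 0.75 for Per3, -0.0807 to 0.53 for Cry1 and -0.21 to 0.0424 for Hlf. The cause of these shifts was not tested. The index difference of -1.22 ran from -2.13 to -0.66 with 1 library left out. Adding 0.5 to FPKM gave differences of 0.03 for Arntl over Nr1d1 (in place of -0.64), -0.23 for Npas2 over Per3 (-2.00), -1.26 for Arntl over Per2 (-2.02) and -0.25 for Cry1 over Nr1d2 (-0.30). Ratios of read counts, chosen after seeing the data, gave -0.63, -1.89, -2.01 and -0.29. Without CCR1-KO replicate 65 the differences were -1.70, -3.82, -3.31 and -0.89, without 66 they were -0.06, -1.43, -1.82 and 0.09, and without 67 they were -0.17, -0.75, -0.94 and -0.09.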
